A study of Arabidopsis thaliana with 79 samples.

Results

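The comparison described here is the response of one root mRNA population to oxygen deprivation: polysomal mRNA purified from Arabidopsis thaliana roots through the promoter pRPL11C, labelled by the submitters as meristematic. It was chosen by the array groups, not by any measured value, and holds 4 of the 79 arrays of the study, 2 from hypoxia and 2 from control, each read over all 22746 probe sets left after the 64 AFFX control probe sets were set aside. In the hypoxia group, 7-day-old Col-0 transgenic seedlings sat for 2 h in chambers flushed with argon. In the control group, seedlings of the same line stayed in air under the same dim light and temperature for the same 2 h. Both groups carry pRPL11C:His6FLAG-RPL18B, a tagged protein of the large ribosomal subunit whose site of expression the promoter sets. Both were grown at 23 °C with 16 h of light a day, and treatment began as the light period ended. Roots were separated and frozen, ribosomes with their mRNA were captured on anti-FLAG beads, and Affymetrix ATH1 arrays were hybridised with material amplified from 15 to 100 ng of RNA in 2 cycles. The study did the same for 7 other root promoter lines (pSCR, pSHR, pWOL, pGL2, pSUC2, pCO2 and pPEP), for p35S, an almost ubiquitous promoter, and for total root RNA, and those serve below only to show where pRPL11C differs.

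Cells cut off from oxygen lose most of their respiratory ATP. Plants answer by fermenting, with pyruvate decarboxylase and alcohol dehydrogenase regenerating NAD+ for glycolysis, by switching on a core set of hypoxia genes under ethylene response factors of group VII, and by holding back costly processes such as the making of ribosomes and cell walls. In the root tip, dividing cells are rich in ribosomes, have thin and growing walls, and are densely packed. What the arrays read is mRNA bound to tagged ribosomes, so a value reflects both the amount of an mRNA and its loading on ribosomes, and, in RNA pooled from whole roots, fewer cells of a type and less RNA per cell cannot be told apart. All values are log2 levels, and a difference of 1 is a 2-fold change.

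The label could be checked only in part. A list member is called measured here where the annotation tied a probe set to that gene alone. As 8730 probe sets carried no gene name, a member that was not measured may still be on the array. The 2 cell division lists, G1/S and G2/M, had 3 of 42 and 6 of 41 genes measured. Of the measured cell division genes, 9 in 2 lists, 0 passed as higher in pRPL11C control roots than in the mean of the 7 other lines' controls, where passing means an adjusted p under 0.05 in the limma fit and a difference of at least 1. By unadjusted p under 0.05, 5 of the 9 were higher and 0 lower, where 14.6% of all probe sets were higher and 12.7% lower, and 8 of the 9 lay above 0 with a median difference of 0.37. The highest was KINESIN-12B, a motor of the cell plate, at 0.81 ± 0.15 (SE, limma adjusted p = 3.64e-05), followed by BUBR1, of the spindle checkpoint, at 0.72 ± 0.16, PRL, a subunit of the replicative helicase, at 0.58 ± 0.15, and ICU2, the catalytic subunit of DNA polymerase alpha, at 0.49 ± 0.16. Of 5 measured root meristem regulators 0 passed either, and they went both ways with a median of 0.03. LHW, which opens divisions of the vascular cells, was at 0.91 ± 0.17 and CR4 at 0.35 ± 0.12, while JKD was at -0.84 ± 0.20 and BBM at -0.77 ± 0.16, all 4 with a limma adjusted p under 0.05. Of 5 measured markers of cortex, root hair and endodermis, 2 were called lower in pRPL11C control roots: AT1G09750, of the cortex list, at -2.31 ± 0.29, and the root hair expansin EXPA7 at -1.15 ± 0.19. The other 3 did not pass, with EXPA18 at -0.96 ± 0.24, the endodermal receptor kinase gene GSO1 at -0.74 ± 0.21 and AT1G62500, of the cortex list, at -0.17 ± 0.18. Over all probe sets 553 (2.43%) were higher and 586 (2.58%) lower. Median control levels of some lists were close to those in p35S, a contrast not tested here. For G2/M they were 6.7425 in pRPL11C, 6.7977 in p35S and 6.725 in pSHR. For the cortex list they were 5.3157 in pRPL11C and 5.3278 in p35S. GSO1 was at 7.6046 and 7.5725 in these lines, and at 10.22 in pSCR. Other lists lay further from p35S, with G1/S at 5.7526 against 5.3892 and the root hair list at 7.1514 against 7.7099. The lists for root cap, epidermis and stele had no measured member, and RPL11C and RPL18B were not analysed here.

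The 4 arrays differed in ways that touch the results. The hypoxic pair was less alike than the control pair, with a correlation over probe sets of 0.978 against 0.992, and its root mean square SD of 0.314 was the sixth largest of 36 groups. The limma SEs and p-values given here pool the spread over all 36 groups, not that of this pair alone. Medians were 6.48 and 6.41 in the hypoxic arrays and 6.52 and 6.53 in the control arrays, and 95th percentiles were 10.55 and 10.54 against 10.72 and 10.72. The gap between the 3′ and 5′ actin control probe sets, a sign of RNA and cDNA length, was 5.96 ± 0.39 in hypoxia and 6.77 ± 0.13 in control (SD, n = 2), and for GAPDH it was 2.87 ± 0.27 and 3.11 ± 0.12. The part of these differences in the results was not tested. Per the labels' protocols the RNA came from 2 or more independent biological replicate experiments, without saying which array belongs to which.

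Hypoxia for 2 h changed a large share of the ribosome-bound mRNAs in pRPL11C roots, and by the deposited values more of them fell than rose. Of 22746 probe sets, 725 (3.19%) were called higher and 1255 (5.52%) lower, so 36.6% of calls were rises. The split depends on scaling: after quantile normalization 859 rose and 847 fell, 50.4% of calls being rises. Rises reached much further than falls, with 237 rises but 59 falls of at least 2, and 42 rises of at least 4. Only 4 falls reached 3. A further 2286 probe sets had an adjusted p under 0.05 with a difference smaller than 1, and 81 differed by at least 1 without passing. The smallest called difference was 1.00. In the other 9 root RNA populations the calls ran from 450 to 943 higher and from 195 to 663 lower. As shares of all probe sets, rises were 4.15% in pCO2, 3.55% in pWOL, 3.55% in pSUC2, 3.51% in pPEP, 3.38% in pSCR, 3.24% in pSHR, 2.66% in pGL2, 2.13% in total RNA and 1.98% in p35S. Falls were 2.91% in pPEP, 2.86% in pCO2, 2.51% in pWOL, 2.3% in pSHR, 2.25% in pSUC2, 1.95% in pSCR, 1.64% in pGL2, 1.24% in total RNA and 0.857% in p35S. By the deposited values the share of falls in pRPL11C was thus above that in each of the other 9. That difference between counts was not itself tested, and the other 9 were not recounted after quantile normalization.

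Calls in both directions were more frequent at higher levels, and the median response was lower there. Where the mean of the 4 arrays was from 10 to 11, 131 of 1031 probe sets (12.7%) fell, 81 (7.86%) rose and the median response was -0.30. From 5 to 6, 48 of 3407 (1.41%) fell, 44 (1.29%) rose and the median was 0.09. Over all probe sets the median response was 0.00. Under quantile normalization the median at levels from 10 to 11 was -0.13, nearer to 0 than with the deposited values.

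**Figure D1:**
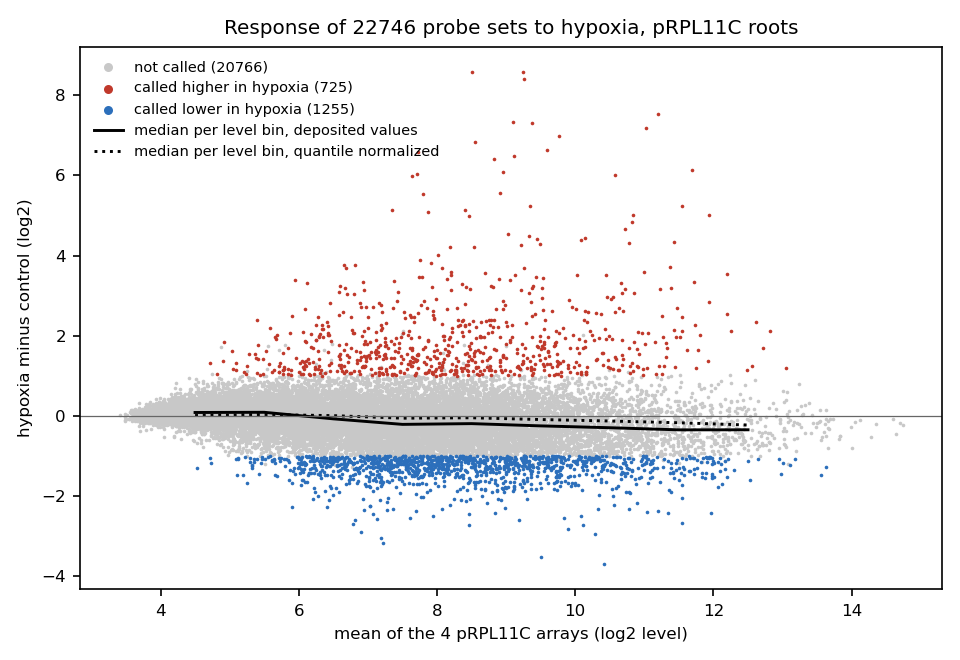
Difference between hypoxia and control in pRPL11C roots (vertical axis, log2) against the mean of the 4 arrays (horizontal axis, log2 level), 1 point for each of 22746 probe sets, red for the 725 called higher and blue for the 1255 called lower. The solid line, the median per level bin, sinks from 0.09 at levels from 5 to 6 to -0.30 at levels from 10 to 11, and the dotted line, after quantile normalization, sinks less.

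The largest rises were in transcripts with low or middling levels in air and high levels after 2 h without oxygen, on a scale that runs from 3.31 to 15.16 over all arrays. AT5G10040 was at 12.62 and 13.00 in the hypoxic arrays, against 4.04 and 4.39 in the control arrays. The difference of 8.59 ± 0.41 (SE) is a 385-fold rise with a limma adjusted p of 6.65e-22. Its control values lie near the 5th percentiles of those arrays, 4.00 and 4.03, so the fold is that of the deposited values and rests on the low end of the scale. AT4G10270 was at 13.74 and 13.33 in hypoxia, against 4.92 and 5.01 in control, a rise of 8.57 ± 0.33. The largest changes were picked among called genes whose hypoxic and control arrays do not overlap. Neither AT5G10040 nor AT4G10270 has a function in the annotation used.

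The next in size were AT4G24110 (7.30 ± 0.36), AT4G33560 (6.84 ± 0.29), AT1G19530 (6.63 ± 0.35) and AT2G17850 (6.58 ± 0.33), also without an annotated function. CML38, a calmodulin-like protein that would bind calcium, stood at 12.39 and 12.34 in hypoxia, against 5.78 and 5.97 in control. The groups were far apart, and the difference was 6.49 ± 0.38 (90.1-fold). AT3G10040, annotated as HYPOXIA RESPONSE ATTENUATOR1, a transcription factor that damps the hypoxia programme, was at 12.18 and 11.81 in hypoxia, against 5.92 and 5.93 in control, 67.4-fold higher. ARL, an ARGOS-like gene that promotes cell expansion, was 37.8-fold higher at 12.27 and 11.66, against 6.81 and 6.64.

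WRKY22, a transcription factor best known from immune signalling, was at 10.50 and 10.31 in hypoxia, against 5.36 and 5.30 in control, a rise of 5.08 ± 0.52. The rest of the 15 largest rises were AT3G27220 (6.42), AT3G23170 (6.03), AT1G33055 (6.00), AT4G39675 (5.02) and AT1G76600 (4.99). All 15 kept their call under the 13 other settings tried, of which the setting with no minimum fold cannot remove a call. The mean response over the 7 other promoter lines was from 4.03 to 7.97 for these genes. In limma the pRPL11C response differed from that mean by the same rule for 0 of the 15, and for 4 of the 15 at an unadjusted p under 0.05. Over all probe sets, the difference was higher in 4.82% and lower in 9.24% at that p.

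The 2 largest falls among named genes were in genes of the growing cell wall. EXPA15, an expansin that loosens the wall for growth, was at 8.34 and 8.78 in hypoxic arrays, against 12.53 and 12.02 in control arrays, and fell by 3.71 on the log2 scale (SE 0.46, 13.1-fold, limma adjusted p = 3.04e-08). GH9C2, a glycosyl hydrolase of the family that holds the endoglucanases, was at 8.05 and 7.45 in hypoxia, against 11.15 and 11.40 in control, 11.5-fold lower. EXPA4, a second expansin, was at 8.14 and 8.98 in hypoxia, against 11.49 and 10.73 in control, 5.85-fold lower. The groups of these 3 do not overlap by the rule that chose them, and both EXPA4 pairs were wide apart within their group.

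AT1G08280, annotated as the glycosyltransferase GALT29A, which works on sugar side chains of arabinogalactan proteins, differed by -2.37 ± 0.42. The other 11 of the 15 largest falls carry no function in the annotation used. Among them AT1G03820 was at 5.90 and 5.44 in hypoxia, against 8.79 and 8.65 in control, and AT2G28780 at 5.49 and 5.42, against 8.41 and 8.28. Both were at low levels in hypoxia, 8.26-fold and 7.41-fold below control. The rest ran from -2.71 ± 0.37 for AT4G18630 to -2.26 ± 0.33 for AT1G80280. All 15 kept their call under every other setting tried that held their probe set.

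Several of these wall and unnamed genes were also more abundant in pRPL11C control roots than in the controls of the 7 other lines. That difference was 2.07 ± 0.35 for EXPA15, 2.22 ± 0.43 for EXPA4, 1.64 ± 0.31 for GH9C2, 2.66 ± 0.30 for AT2G28780 and 2.18 ± 0.20 for AT4G35720. It was -1.56 ± 0.32 for AT3G60860, whose response was -2.35. The 2 comparisons share the pRPL11C control arrays, so the values stand side by side and no relation is drawn from them.

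**Figure D2:**
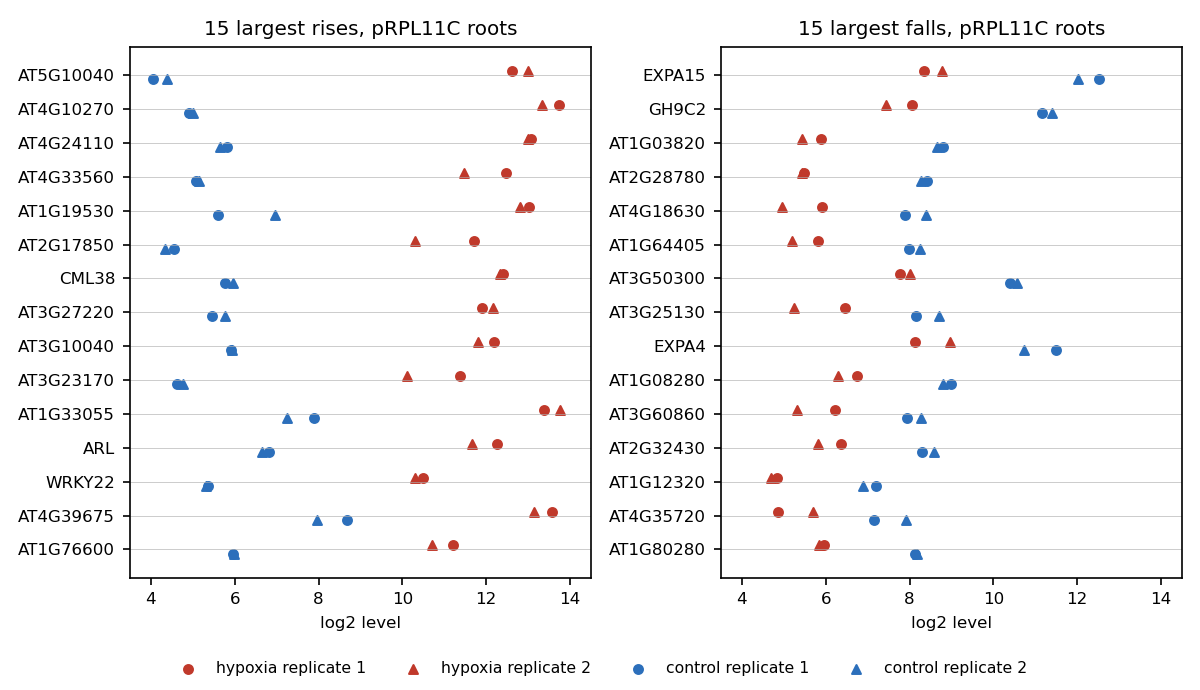
Log2 levels (horizontal axis) of the 15 genes with the largest rises (left) and the 15 with the largest falls (right) in pRPL11C roots, with hypoxia in red above control in blue and circles and triangles for replicates 1 and 2. The genes were chosen among those whose groups do not overlap, and their levels range from EXPA15 at 8.34 and 8.78 against 12.53 and 12.02 to AT5G10040 at 12.62 and 13.00 against 4.04 and 4.39.

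The core hypoxia genes rose. Of 25 measured members, 23 rose and 0 fell, against 3.19% and 5.52% of all probe sets, and their median response was 4.44 against 0.00. This list was drawn by the study's authors from these and related arrays, so its direction is not independent evidence. AT5G44730 was at 13.21 and 13.27 in hypoxia, against 8.41 and 8.40 in control, with replicates close together in both groups. TIL, a lipocalin that protects membranes under heat and oxidative stress, rose by 3.35 ± 0.28. FHL, which carries the light receptor phytochrome A into the nucleus, was at 7.94 and 7.74 in hypoxia, against 5.33 and 5.32 in control. The smallest called member was AT3G29970 at 1.69 ± 0.35. The 2 that did not pass were AT5G45960, at 4.43 and 4.46 against 4.49 and 4.52, and AT2G15880, described further down.

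Fermentation genes rose and glycolytic ones did not pass. PDC2, a pyruvate decarboxylase, was at 13.74 and 14.21 in hypoxia, against 10.43 and 10.42 in control, an 11.7-fold rise. AT4G17260, entered in the list as the lactate dehydrogenase gene, was at 12.48 and 11.92 in hypoxia, against 8.67 and 8.69 in control, 11.5-fold higher. Both measured members of the fermentation and sucrose list thus rose, out of 15 listed genes. Of 7 glycolytic genes 0 passed in limma, 1 had an unadjusted p under 0.05 (higher), and the median response was -0.07. Over all probe sets, 11.1% were higher and 18.7% lower at that unadjusted p. GAPC2, a cytosolic glyceraldehyde-3-phosphate dehydrogenase, was at 13.65 and 13.55 in hypoxia, against 13.63 and 13.71 in control, near the top of the scale in both. TPI, triose phosphate isomerase, differed by -0.11 ± 0.22. Of 6 nuclear genes for succinate dehydrogenase and cytochrome c, 0 passed, 1 had an unadjusted p under 0.05 (higher), and the median was -0.03.

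Signalling and energy genes gave smaller sets. All 3 measured stress regulators rose: WRKY22 as above, STZ, a zinc finger repressor of salt and oxidative stress, at 9.43 and 8.53 against 5.79 and 5.98, and WRKY6 at 8.84 and 8.16 against 6.82 and 7.10. Among 4 low-energy genes, IVD, an enzyme of branched-chain amino acid breakdown that feeds electrons to respiration, rose by 1.59 ± 0.33, and MCCA, of leucine breakdown, stood at 1.00 ± 0.41 without passing. Of 3 ethylene genes 0 passed and 2 had an unadjusted p under 0.05, both lower, EIN3, the central transcription factor of that pathway, differing by -0.74 ± 0.26. At that unadjusted p, 18.7% of all probe sets were lower and 11.1% higher. Of 12 heat shock and co-chaperone genes 0 passed, with 5 higher and 1 lower at an unadjusted p under 0.05 and a median of 0.84. AT5G37670 was at 7.62 and 9.52 in hypoxia, against 6.49 and 6.43 in control, so its hypoxic replicates were far apart. Without hypoxia replicate 1, 2 of the 12 were called higher. Up to 9 of the 12 were called higher in another line (pSUC2), while for 0 of the 12 did the pRPL11C response differ from the mean of the 7 lines in limma, with 2 lower at an unadjusted p under 0.05. In that comparison 9.24% of all probe sets were lower at that p.

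**Figure D3:**
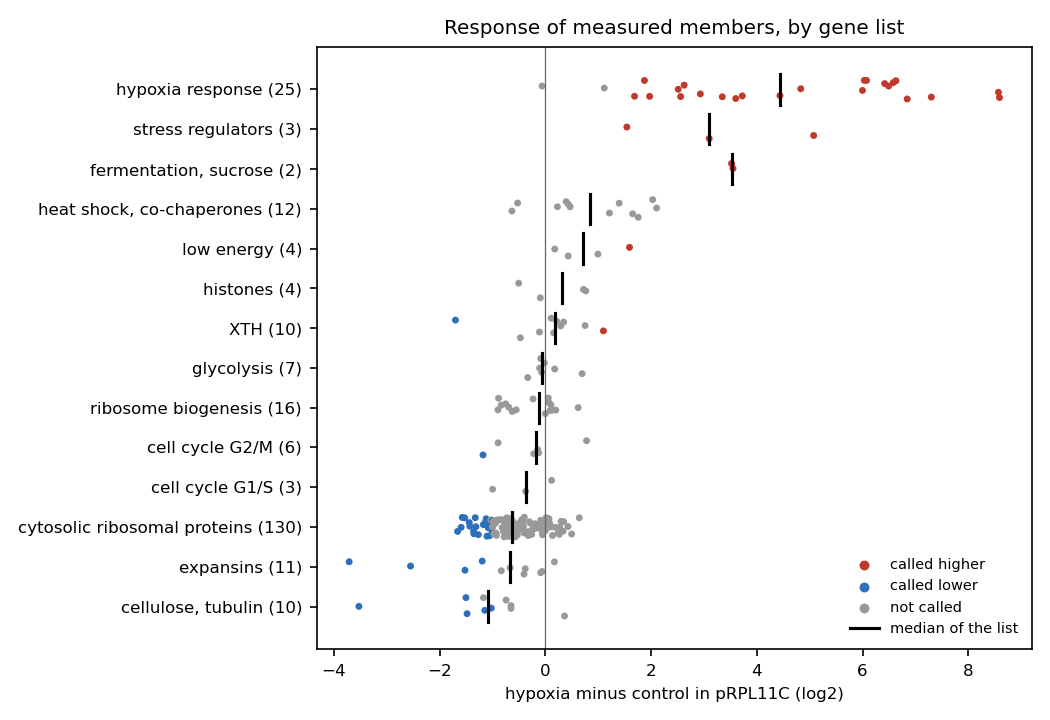
Response to hypoxia in pRPL11C roots (horizontal axis, log2) of the measured members of 14 gene lists, 1 point per gene, red where called higher, blue where called lower and grey otherwise, with a black bar at the list's median and the number of measured members in brackets. The hypoxia list lies to the right with a median of 4.44, and the cytosolic ribosomal protein, expansin and cellulose and tubulin lists lie to the left with medians of -0.63, -0.67 and -1.08.

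Many genes for ribosomal proteins, the parts from which ribosomes are built, fell. Of 130 measured cytosolic ribosomal protein genes, 23 (17.7%) were called lower and 0 higher, against 5.52% and 3.19% of all probe sets. Their median response was -0.63. With no minimum size, 52 were lower and 2 higher, where 12.5% and 6.26% of all probe sets were. By unadjusted p under 0.05, 73 were lower and 3 higher, where 18.7% and 11.1% of all probe sets were. Their median level was 10.4 in hypoxia and 11.1 in control, levels at which probe sets in general had medians below 0. Among those at a level of at least 10, 18 of 80 (22.5%) fell, with a median of -0.72. Among the other probe sets at that level, 214 of 1716 (12.5%) fell, with a median of -0.29. The count moved with the arrays and the scaling: 12 fell under quantile normalization, with a median of -0.45, 39 fell without hypoxia replicate 1 and 14 without control replicate 2. The median was below 0 under each setting tried, from -0.71 to -0.45.

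AT3G53430 had the largest fall among the 23. It was at 10.64 and 10.14 in hypoxia, against 11.82 and 12.28 in control, and fell by 1.66 (SE 0.32, limma adjusted p = 0.00014). AT2G19730 was at 11.03 and 10.36 in hypoxia, against 12.12 and 12.46 in control, and AT5G47700 at 9.72 and 9.45, against 11.12 and 11.19. AT2G27720 had the lowest adjusted p of the 23, at 10.84 and 10.47 against 12.12 and 12.06. In all 23 the hypoxic arrays lay below both control arrays, as groups did not overlap in 1978 of all 1980 called probe sets. Those higher with an adjusted p under 0.05 were AT3G02190, at 9.73 and 9.93 in hypoxia against 9.18 and 9.20 in control, and AT5G40040, at 5.29 and 5.30 against 4.75 and 4.84. Their differences of 0.64 and 0.50 were short of the size required. AT5G27850, entered in the list as RPL18C, was at 11.86 and 11.70 in hypoxia, against 12.60 and 12.81 in control, a difference of -0.93 ± 0.28 that missed the size required.

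In the other populations the medians of the same 130 genes were nearer to 0. The median response was -0.40 in pCO2, -0.35 in pSUC2, -0.31 in pPEP, -0.30 in pSHR, -0.26 in pSCR, -0.14 in pGL2 and -0.09 in pWOL. In p35S polysomes it was -0.12 and in total RNA 0.00. From 0 to 6 of the 130 were called lower in any of these 9 populations, where 0.857% to 2.91% of all probe sets fell, while 23 were in pRPL11C, where 5.52% fell. Tested gene by gene, 1 of the 130, AT2G27720, differed from the mean of the 7 lines, by -1.04 ± 0.25 (limma adjusted p = 0.0226), and 30 were lower and 3 higher at an unadjusted p under 0.05, where 9.24% of all probe sets were lower and 4.82% higher. Over all probe sets, 0.479% were called lower in this comparison. At a level of at least 10 the median difference from the 7 lines was -0.40 for these genes and -0.20 for the other probe sets. After quantile normalization the median response of the 130 genes in pRPL11C was -0.45, and the other populations' medians were not computed under that scaling. Of 16 measured genes for the assembly of ribosomes, 0 passed in limma, 6 were lower and 1 higher at an unadjusted p under 0.05, and the median was -0.12. At that p the hypoxia response was lower in 18.7% and higher in 11.1% of all probe sets. The lowest of the 16 was AT1G50920 at -0.90 ± 0.23.

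**Figure D4:**
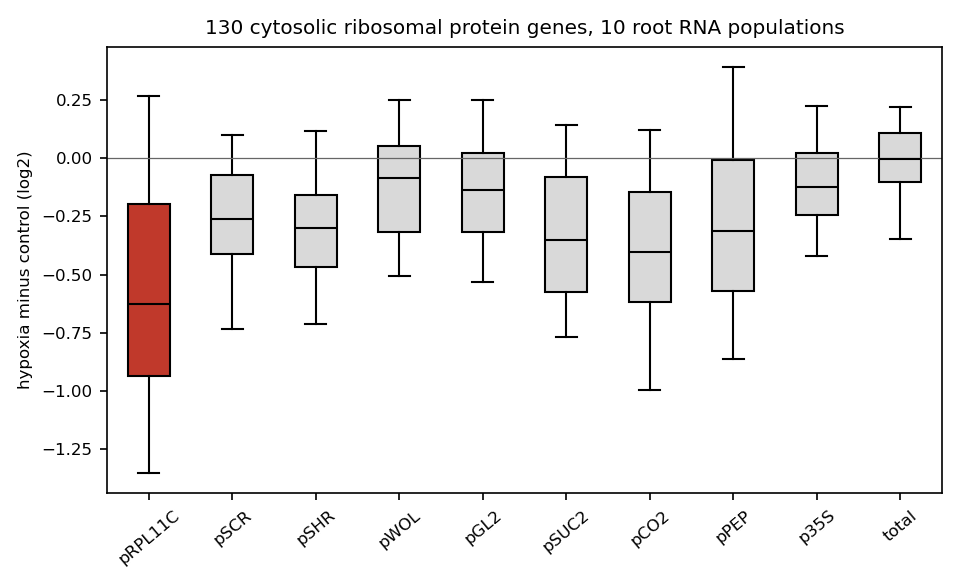
Response to hypoxia (vertical axis, log2) of 130 cytosolic ribosomal protein genes in pRPL11C (red) and in 9 other root RNA populations (grey). Boxes span the quartiles with a line at the median and whiskers run from the 5th to the 95th percentile over genes; the medians run from -0.63 in pRPL11C to 0.00 in total RNA.

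Several cell wall and cytoskeleton genes fell. Of 11 expansins, 4 fell and 0 rose, with a median of -0.67, where 5.52% of all probe sets fell and 3.19% rose. Besides EXPA15 and EXPA4 these were EXPB3, at 10.90 and 11.26 in hypoxia against 12.61 and 12.59 in control, and EXPA18, at 6.44 and 6.51 against 8.14 and 7.20. Of 10 genes for cellulose and tubulin, 5 fell and 0 rose, with a median of -1.08. Their median level in control was 9.97, and from 9 to 10 on the scale of mean levels 11.3% of all probe sets fell. COB, a membrane-anchored protein that orients cellulose in root cells, was at 9.26 and 8.73 in hypoxia, against 10.21 and 10.78 in control. The beta-tubulins TUB5, TUB6 and TUB9 differed by -1.48 ± 0.34, -1.15 ± 0.31 and -1.02 ± 0.25. TUA6, an alpha-tubulin, was at -1.17 ± 0.45 and did not pass (limma adjusted p = 0.0589). Against the mean of the 7 lines EXPA7, of the root hair, was the expansin whose response differed, at -0.67 in pRPL11C against a mean of -1.69. As given above, EXPA7 was also lower in pRPL11C control roots than in the controls of the 7 lines. Both comparisons share the pRPL11C control arrays.

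Only EXPA15, EXPA4, GH9C2 and TUB5 of these 9 called genes kept their call under every other setting tried. Without control replicate 1, 2 of the expansins were called. Of the cellulose and tubulin genes, 2 were called without hypoxia replicate 2, 3 without control replicate 2 and 3 under quantile normalization. Of 10 xyloglucan endotransglucosylase genes, whose enzymes cut and rejoin wall polymers, XTH32 fell to 7.04 and 6.58 in hypoxia, against 8.37 and 8.65 in control, and EXGT-A3 rose to 10.71 and 10.70, against 9.53 and 9.69. The other 8 did not pass.

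Of the 9 measured cell cycle genes, 1 fell, where 5.52% of all probe sets did. That was AUR2, an Aurora kinase of mitosis, at 6.28 and 6.62 in hypoxia against 7.49 and 7.77 in control (-1.18 ± 0.36), and its call was lost without hypoxia replicate 1, without control replicate 2 and with 50 added to the linear values. KINESIN-12B, at 5.61 and 5.32 against 6.48 and 6.23, and ICU2, at 4.76 and 4.75 against 5.56 and 5.94, had adjusted p-values of 0.000564 and 0.000406 with differences of -0.89 and -0.998, the second just short of the size required. BUBR1 lay on the other side, at 8.22 and 7.60 in hypoxia against 7.34 and 6.92 in control. Its difference of 0.78 had an adjusted p of 0.00661 and became 1.09, called higher, without hypoxia replicate 2. AUR1, at 8.81 and 8.31 against 8.79 and 8.77, AUR3 and the centromeric histone gene HTR12 differed by -0.22, -0.13 and -0.14. Of 4 histone genes 0 passed in limma, and 2 were higher at an unadjusted p under 0.05. Over all probe sets, 11.1% were higher and 18.7% lower at that p. Of 5 root meristem regulators 0 passed in limma, and 2 were lower at an unadjusted p under 0.05: LHW at -0.91 ± 0.23, and the receptor kinase gene CR4 at -0.51 ± 0.16.

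Where the pRPL11C response itself differed from the mean response of the 7 other promoter lines, the calls were few: 31 probe sets (0.136%) were higher and 109 (0.479%) lower. Scaling changed the split, with 49 higher and 46 lower after quantile normalization and 46 higher and 74 lower when arrays were centred on their medians. The total of 140 also rested on single arrays. It was 389 without hypoxia replicate 1, 31 without hypoxia replicate 2, 41 without control replicate 1 and 19 without control replicate 2.

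Of the 20 largest differences, 3 held under every other setting tried that held their probe set. AT1G33050 was at 7.87 and 7.97 in hypoxia, against 7.94 and 8.16 in control, so its arrays overlapped between groups, while its responses in the 7 lines ran from 2.26 to 4.33. The difference was -3.26 ± 0.38 (limma adjusted p = 8.15e-07). Its response in p35S was -0.19 and in total RNA 1.57, so p35S was also below the range of the 7 lines. AT4G30380, annotated as the expansin-like gene EXLB2, was at 5.64 and 5.61 in hypoxia, against 4.42 and 4.50 in control, a response of 1.16 against 2.09 to 4.06 in the 7 lines, 1.26 in p35S and 3.53 in total RNA. AT4G18280 was the upward difference among the 3, at 9.68 and 9.40 in hypoxia against 6.19 and 6.46 in control, a response of 3.21 against 0.96 to 2.61 in the 7 lines and 2.58 in p35S.

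AT2G15880, of the hypoxia list, had a similar pattern. It was at 5.74 and 5.89 in hypoxia, against 4.90 and 4.49 in control, and its response of 1.12 compares with 2.90 to 4.84 in the 7 lines and 1.08 in p35S. The differences between pRPL11C and p35S were 0.05 ± 0.48 for AT1G33050, 0.03 ± 0.73 for AT2G15880 and -0.10 ± 0.48 for AT4G30380, none of which passed. The labels used here give no batch or scan date, so whether pRPL11C and p35S arrays were processed together, apart from the 7 lines, could not be checked. Other genes fell in pRPL11C while their responses in the 7 lines lay near or above 0. AT5G63190 was at 8.87 and 8.96 in hypoxia, against 10.14 and 10.30 in control, while its responses in the 7 lines lay between -0.14 and 0.76. AT4G23590 was at 6.23 and 5.87, against 7.10 and 7.14, with 0.07 to 0.74 in the 7 lines. AT4G35720, AT2G28780, AT1G03820 and AT3G25130 fell in pRPL11C more than in the mean of the lines. As given above, AT2G28780 and AT4G35720 were also higher in pRPL11C control roots than in the controls of the 7 lines. Both comparisons share the pRPL11C control arrays, and the part of the control level in these falls was not tested.

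Some genes rose more in pRPL11C. TRM31 was at 7.35 and 7.58 in hypoxia, against 5.26 and 5.14 in control. AT2G44800 was at 6.38 and 5.31, against 4.02 and 3.96, and AT1G61260 at 9.52 and 9.84, against 8.15 and 7.90. Their responses of 2.26, 1.85 and 1.65 lay above the highest of the 7 lines, 1.78, 0.93 and 1.13. The hypoxic arrays of AT2G44800 were far apart, and its difference from the 7 lines was 0.77 without hypoxia replicate 1 and 0.56 with 50 added to the linear values, below the size required. AT5G19810 differed by 1.94, but its hypoxic arrays stood at 7.06 and 9.26, far apart, and its call was lost with root arrays alone, with only the arrays compared, without hypoxia replicate 2 and without either control replicate. In AT3G03680, AT1G34330, AT1G80320 and AT1G73340 the mean of the 7 lines was the lower one: their pRPL11C responses were 0.24, -0.09, 0.20 and -0.87 against means of -1.17, -1.40, -1.10 and -2.05. The control levels of those 4 also differed from the mean of the 7 lines, by -1.72, -1.30, -1.29 and -2.53, and the comparisons share those control arrays.

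**Figure D5:**
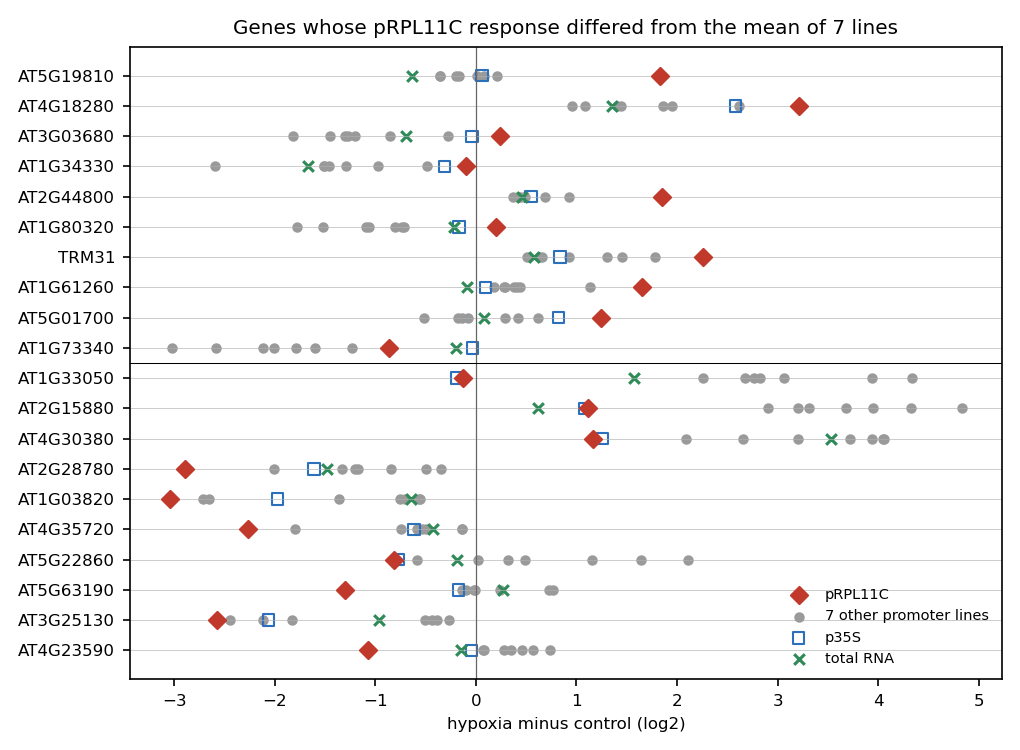
Response to hypoxia (horizontal axis, log2) of the 20 genes with the largest called differences between pRPL11C and the mean of 7 other promoter lines, 10 higher above the line and 10 lower below it. Red diamonds mark pRPL11C, grey dots the 7 lines, blue squares p35S and green crosses total RNA; in AT1G33050 the diamond is at -0.13 and the grey dots run from 2.26 to 4.33.

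Against p35S polysomes, which sample nearly all root cells, 3 probe sets (0.0132%) had a higher response in pRPL11C and 4 (0.0176%) a lower one. Higher and lower refer to the sign of the difference, not to the size of the response. AT1G61260 and AT2G44800 were among the 3. The other, AT5G51470, was at 6.19 and 5.73 in hypoxia against 7.05 and 7.00 in control. It fell less in pRPL11C, with a response of -1.07 beside -2.34 in p35S. The named genes that responded lower were AT3G48140, at 10.61 and 10.69 against 12.26 and 12.15, AT3G12760, at 10.36 and 10.26 against 11.52 and 11.82, and AT5G10920, at 7.82 and 8.18 against 9.11 and 9.06. Each fell in pRPL11C, and p35S responses were -0.20, -0.19 and 0.14. None of these 6 kept its call under every other setting tried, and 0 probe sets passed in limma when the 47 root arrays alone were fitted, although 2059 had an unadjusted p under 0.05. Against total RNA, 103 probe sets (0.453%) responded higher and 473 (2.08%) lower. After quantile normalization these were 142 and 203, and the total of 576 became 372 without hypoxia replicate 2, 258 without control replicate 1 and 136 without control replicate 2.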

How the data were processed

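The deposited log2 values were made by the authors with RMA in the affy package, per the submitters' processing notes; versions and build are not given in the sources used here. The table held 22810 probe sets for 79 arrays in 36 groups and no 2 arrays were identical. Depth has no meaning for arrays, and the number of arrays limits the precision. The 64 AFFX probe sets were left out. limma 3.58.1 in R 4.3.3 fitted 1 mean per group over all arrays (43 residual degrees of freedom), with Benjamini-Hochberg adjustment over 22746 probe sets. A call needed an adjusted p under 0.05 and an absolute log2 difference of at least 1. Differences between responses were contrasts in the same fit, the 7 lines weighted equally.

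The platform annotation named 1 gene for 13513 probe sets, several for 503 and none for 8730; symbols came from the RefSeq gene table through gene identifiers, and 77 kept the platform's name. A gene with several probe sets was represented by the one with the highest mean. Named were the measured members of 27 lists, the 15 largest called rises and falls whose arrays did not overlap, the 10 largest called differences each way against the 7 lines, and all called against p35S. All members and lists were chosen with earlier results of these data known. The ribosomal protein and heat shock lists were written from general knowledge after the files were seen, because the annotation does not name these families.

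The fit was tested on simulated data with the same spread in every group and no shifts between arrays. Of added log2 changes of 1.5, 93.9% were recovered in the hypoxia response and 75.8% in the difference from p35S. The simulation does not bear on unequal spread between groups or on scaling. Alternatives covered the arrays fitted, scaling, a 50-unit offset, a mean of at least 6, the variance trend, the fold minimum, the replicate block and each array left out.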

Additional observations from a re-analysis of the deposited data

Results flagged for a closer look

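Differences between the pRPL11C response and that of other root populations drew attention because a contrast between the responses passed the test. They numbered 140 probe sets against the mean of 7 other promoter lines, 7 against p35S and 576 against total RNA. Against the 7 lines the differences in log2 response were 1.94 for AT5G19810, 1.60 for AT4G18280, 1.41 for AT3G03680, 1.31 for AT1G34330, 1.31 for AT2G44800, 1.30 for AT1G80320, 1.23 for TRM31, 1.21 for AT1G61260, 1.19 for AT5G01700 and 1.19 for AT1G73340. In the other direction they were -3.26 for AT1G33050, -2.63 for AT2G15880, -2.22 for AT4G30380, -1.83 for AT2G28780, -1.72 for AT1G03820, -1.63 for AT4G35720, -1.55 for AT5G22860, -1.51 for AT5G63190, -1.44 for AT3G25130 and -1.44 for AT4G23590. Against p35S they were 1.55 for AT1G61260, 1.30 for AT2G44800, 1.27 for AT5G51470, -1.36 for AT3G48140, -1.23 for AT5G10920 and -1.17 for AT3G12760. With 2 arrays in a group, no single array could be tested as standing apart.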

How the results depend on the processing

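Rises in response numbered 646 to 770 and falls 1103 to 1592 when 1 array was left out, and 57 of the 79 named genes called in pRPL11C kept their call under every one of the 13 other settings tried that held their probe set. With no minimum fold, a setting under which no call can be lost, 1425 probe sets rose and 2841 fell. With 50 added to the linear values 724 fell. Of the named differences, 3 of 20 against the 7 lines and 0 of 6 against p35S kept their call throughout. Against the 7 lines, 79 passed with root arrays alone, 53 with only the arrays compared, 64 with 50 added and 271 with no minimum fold; leaving out 1 array gave 19 to 389. Against p35S, 0 passed in limma with root arrays alone (2059 at an unadjusted p under 0.05) or with only the arrays compared (2078), 3 after quantile normalization, 1 among probe sets with a mean of at least 6 and 3 with the variance trend, and 1 to 19 with 1 array left out. Against total RNA the numbers were 381 with root arrays alone, 107 with only the arrays compared, 345 after quantile normalization and 136 to 709 with 1 array left out. For control levels, 640 passed with 50 added, 3909 with no minimum fold and 1033 to 1141 with 1 control array left out. Among the named genes, no called value changed sign. What made the counts move was not tested.

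Whether like-numbered hypoxia and control arrays came from the same experiment is not known. In pRPL11C the deviations of like-numbered arrays from their group means correlated at -0.23. Deviations within each group mirror each other, so both replicate numbers give the same value. It cannot decide whether the arrays were paired. With the replicate block 751 probe sets rose and 1284 fell, and 263 differed from the 7 lines, 10 from p35S and 741 from total RNA. With the pRPL11C numbers crossed, a pairing added after seeing the data, 755 rose and 1287 fell, and 272 differed from the 7 lines, 1 from p35S and 775 from total RNA.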
